A study of Homo sapiens with 54 samples.

Results

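The 8 genes described here make thymidylate, handle folate or take uracil out of DNA, and were followed by RNA-seq through 5-fluorouracil (5-FU) treatment, added irradiation and acquired 5-FU resistance in colorectal cancer cells. They are TYMS, SHMT1, FPGS, GGH, DUT, UNG, TDG and SMUG1. The genes were listed by symbol, with no limit on a measured value but with earlier results of these data known, and all 8 were among the 59368 genes of the deposited table. All 8 passed the filter on low counts in every fit, and the lowest estimated count of any of them in any library was 663, for SMUG1.

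The lines were DLD-1, HCT-116 and HT-29, established colorectal cancer lines. Each was studied as 5-FU-sensitive cells and as resistant cells, 1 resistant population per line. By the study's account the resistant cells were derived from the sensitive ones by passage in rising 5-FU. They were kept in more 5-FU than the dose tested here, and when it was withdrawn before treatment is not given in the methods. Each of these 6 forms received 10 µM uracil (the control), 10 µM 5-FU, or 10 µM 5-FU followed by a medium change and X-ray irradiation at a dose set for that line (5-FU+IR), with 24 h of uracil or 5-FU. The 18 conditions had 3 libraries each, described by the study as biological replicates, so that a p-value here measures the spread between 3 cultures of 1 population. No group was irradiated without 5-FU. The time from irradiation to harvest is not given in the methods of the study. Effects of the X-rays, of the medium change and of that time cannot be told apart in 5-FU+IR against 5-FU. In these bulk libraries, fewer cells that express a gene and less RNA per cell cannot be told apart.

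Thymidylate synthase, the TYMS product, methylates dUMP to dTMP, the only thymine nucleotide that cells build from uracil nucleotides. It takes the carbon from a folate that serine hydroxymethyltransferase (SHMT1 in the cytosol) charges. Folates stay in the cell as polyglutamates, which folylpolyglutamate synthase (FPGS) builds and gamma-glutamyl hydrolase (GGH) takes apart. 5-FU is turned into FdUMP, which binds thymidylate synthase and folate in a dead-end complex, so that dUTP and FdUTP can enter DNA. The dUTPase encoded by DUT breaks these down before they are used, and the glycosylases UNG, SMUG1 and TDG cut uracil or fluorouracil out of DNA as the first step of base excision repair.

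Totals per library ran from 38957142 to 218518344 estimated counts, with a median of 51373543, and the deepest was the second sensitive DLD-1 library under uracil. Of 10 epithelial markers, EPCAM, CDH1, KRT8, KRT18 and KRT20 were above 1 TPM (the share of transcripts, corrected for transcript length and depth) in all 18 conditions, and CDX2 reached it in 15, VIL1 in 9, CDH17 and LGALS4 in 6 each and CEACAM5 in 3. Of markers of other cells, PTPRC, CD3E, COL1A2, COL3A1, DCN, VWF and CDH5 were below 1 TPM in all of them. LYZ reached 1 TPM in 5 conditions, up to a mean of 1640 TPM, COL1A1 in 15 (up to 28.8 TPM) and PECAM1 in 7 (up to 4.55 TPM). Line markers were genes at 10 TPM or more in 1 sensitive line under uracil and at most 0.1 TPM in the others. In the libraries labelled resistant HT-29, 62 of 64 HCT-116 markers and 0 of 12 HT-29 markers reached 1 TPM, under each treatment, and the resistant HCT-116 libraries also had 62 of the 64. The resistant DLD-1 libraries held 19 of 20 DLD-1 markers. Under uracil, the members' values for the libraries labelled resistant HT-29 are therefore set beside both HT-29 and HCT-116. For these libraries, tests of transcript usage, of 5-FU responses and of single genes other than the members are given against HT-29 alone. In the first resistant DLD-1 library under uracil TYMS, UNG, TDG and GGH stood apart from the other 2, and the comparisons of the members' CPM that use it are also given without it.

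On GRCh38 (GENCODE 44) TYMS lies at chr18:657653-673578 on the plus strand, SHMT1 at chr17:18327860-18363563 on the minus strand, FPGS at chr9:127794597-127814327 on the plus strand, DUT at chr15:48331011-48343373 on the plus strand, UNG at chr12:109097597-109126725 on the plus strand, TDG at chr12:103965822-103988874 on the plus strand and SMUG1 at chr12:54121277-54189008 on the minus strand. The far end of ENOSF1 (chr18:670318-712662, minus strand) overlaps TYMS on the opposite strand, as does the long non-coding TYMSOS (chr18:630886-658350, minus strand). The libraries were directional, but whether the counting used strand is not given in the sources used here, so values of ENOSF1 and TYMSOS are given beside the TYMS changes. Processed copies of DUT held 0.0633 to 1.41% of the reads given to DUT and its 8 listed copies, and those of TDG, TYMS and SHMT1 held at most 0.0634%.

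UNG and DUT each make a nuclear and a mitochondrial enzyme from different first exons, and these starts are shown because the mitochondrial UNG-202 and DUT-201 took a larger share of their gene under 5-FU in HCT-116 cells, calls that were lost without replicate 2. The coding starts that follow run 5′ to 3′ and come from GENCODE 44. Capitals mark the bases that belong to that transcript alone, lower case the first 20 bases shared with its partner. UNG-201 encodes 313 residues (the nuclear form, UNG2) and UNG-202 encodes 304 (the mitochondrial form, UNG1), with 43 and 34 residues of their own. DUT-202 encodes 164 residues (nuclear) and DUT-201 encodes 252 (mitochondrial), with 5 and 93 residues of their own.
UNG-201: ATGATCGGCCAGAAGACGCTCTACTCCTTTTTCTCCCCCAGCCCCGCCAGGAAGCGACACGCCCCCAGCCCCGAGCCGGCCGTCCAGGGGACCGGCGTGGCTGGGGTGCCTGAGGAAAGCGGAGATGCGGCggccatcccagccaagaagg
UNG-202: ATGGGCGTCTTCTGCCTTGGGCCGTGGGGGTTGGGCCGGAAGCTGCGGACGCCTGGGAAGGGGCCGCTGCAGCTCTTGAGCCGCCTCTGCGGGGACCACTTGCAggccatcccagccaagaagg
DUT-202: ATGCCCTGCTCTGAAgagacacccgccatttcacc
DUT-201: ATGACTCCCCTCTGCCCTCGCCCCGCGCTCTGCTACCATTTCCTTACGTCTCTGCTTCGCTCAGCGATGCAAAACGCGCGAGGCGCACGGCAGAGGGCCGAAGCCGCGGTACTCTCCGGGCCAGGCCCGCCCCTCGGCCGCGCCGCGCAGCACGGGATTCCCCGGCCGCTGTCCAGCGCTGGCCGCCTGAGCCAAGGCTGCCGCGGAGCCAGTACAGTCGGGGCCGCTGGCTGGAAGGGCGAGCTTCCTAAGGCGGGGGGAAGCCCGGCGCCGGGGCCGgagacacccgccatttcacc

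TYMS and UNG were taken for this because under 5-FU in HCT-116 cells TYMS fell while the share of UNG-202 within UNG was larger. Of their windows, only those that held a match to TTTNNCGC are printed, before the TYMS start and before the second UNG start. The choice of window thus rests on that match and not on expression. Both are RefSeq sequence of GRCh38.p14 on the plus strand, chr18:657403-657652 for TYMS (250 bases) and chr12:109097922-109098117 for UNG (196 bases, cut before transcribed sequence). Capitals mark matches to the letters TTTNNCGC (an E2F motif), CCAAT (NF-Y) and GGGCGG (Sp1), searched on both strands.
TYMS upstream: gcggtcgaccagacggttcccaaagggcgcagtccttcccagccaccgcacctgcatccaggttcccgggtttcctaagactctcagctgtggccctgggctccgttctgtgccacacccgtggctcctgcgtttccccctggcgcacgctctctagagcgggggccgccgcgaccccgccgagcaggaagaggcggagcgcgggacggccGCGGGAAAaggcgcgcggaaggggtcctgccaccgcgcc
UNG second start upstream: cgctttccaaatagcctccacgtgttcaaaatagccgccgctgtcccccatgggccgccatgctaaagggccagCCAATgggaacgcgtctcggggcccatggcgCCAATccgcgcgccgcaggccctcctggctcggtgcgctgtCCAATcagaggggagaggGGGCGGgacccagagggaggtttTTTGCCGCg
The TYMS match lies on the minus strand, 39 bases before the start. Of the 35116 RefSeq promoter windows of 250 bases, 5.9% held TTTNNCGC, 32.0% held CCAAT and 42.6% held GGGCGG. Of 4 DUT windows the most downstream held 2 matches to TTTNNCGC and the other 3 held 0, and those of SHMT1, FPGS and TDG and the first UNG start also held 0, which says only that these letters are not in these windows. No window is given for GGH and SMUG1.

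**Figure D1:**
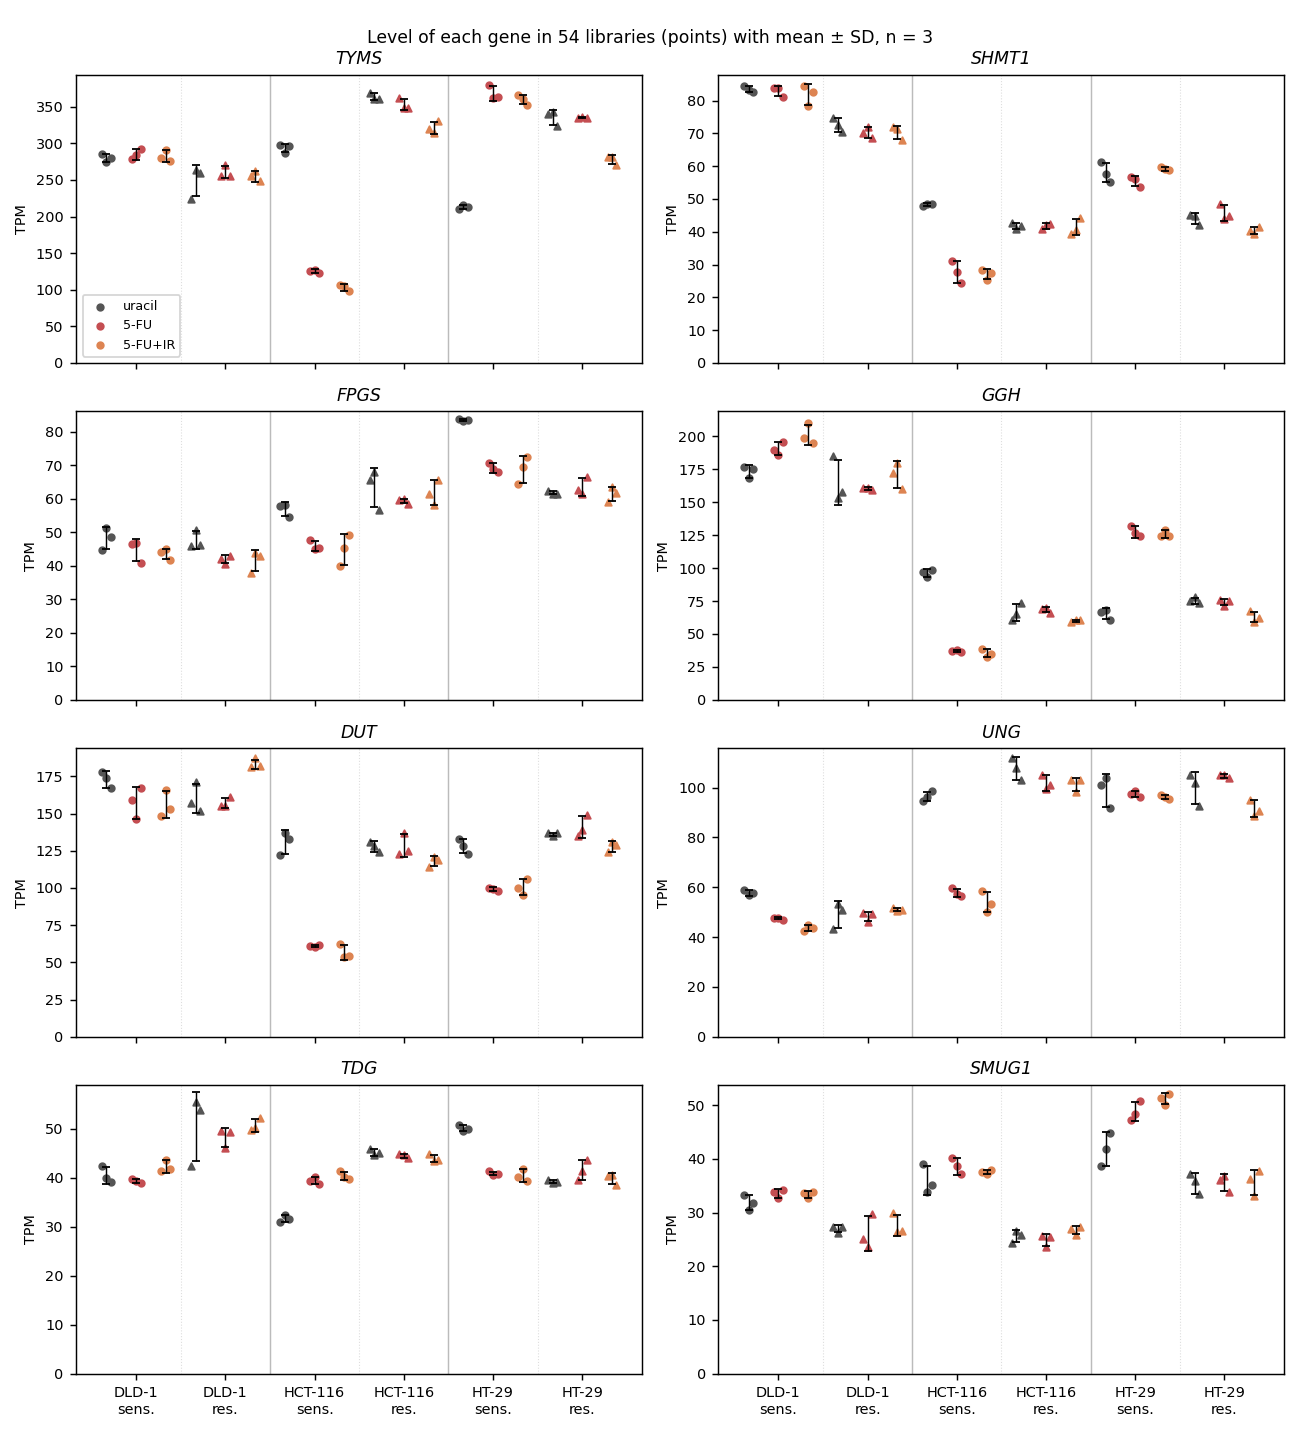
Level of each of the 8 genes in TPM (vertical axis) in the 18 conditions, grouped by line and by sensitive (circles) and resistant (triangles) cells, with 1 point per library, coloured by treatment, and a vertical line for the mean ± SD of 3 libraries. TYMS in sensitive HCT-116 cells under 5-FU (mean 125 TPM) and 5-FU+IR (103 TPM) sits below all other conditions, and the condition means of TDG span 1.6-fold, the least of the 8 genes.

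All 8 genes were well expressed everywhere, and the lowest value of any library was 23.5 TPM, for SMUG1. TYMS was the most abundant, with condition means from 103 TPM in sensitive HCT-116 cells under 5-FU+IR to 368 TPM in sensitive HT-29 cells under 5-FU, a 3.56-fold range. GGH had the widest range, 5.68-fold, from 35.4 TPM in sensitive HCT-116 cells under 5-FU+IR to 201 TPM in sensitive DLD-1 cells under 5-FU+IR. DUT spanned 3.23-fold (56.6 to 183 TPM), SHMT1 3.09-fold (27 to 83.5 TPM), UNG 2.46-fold (43.7 to 108 TPM), SMUG1 2.06-fold (24.9 to 51.2 TPM), FPGS 2.01-fold (41.5 to 83.4 TPM) and TDG 1.6-fold (31.7 to 50.7 TPM). Against these ranges, the median coefficient of variation between the 3 libraries of a condition was 2.29 to 4.37%, depending on the gene.

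When the 18 conditions were ordered by level, most neighbours overlapped in their libraries: 10 of the 17 neighbouring pairs for TYMS, 11 for GGH, 13 for SHMT1 and DUT, 14 for FPGS, UNG and TDG and 15 for SMUG1. For TYMS the top 4 places were held by sensitive HT-29 cells under 5-FU (368 ± 9.9 TPM, SD, n = 3), resistant HCT-116 cells under uracil (364 ± 4.84), sensitive HT-29 cells under 5-FU+IR (360 ± 6.63) and resistant HCT-116 cells under 5-FU (353 ± 7.67), each overlapping the next. The bottom 3 places were set apart from each other: sensitive HT-29 cells under uracil (213 ± 2.91 TPM), then sensitive HCT-116 cells under 5-FU (125 ± 2.3) and 5-FU+IR (103 ± 4.7). SHMT1 and GGH were ordered mainly by line. All 6 DLD-1 conditions lay above all others, at 70.2 TPM or more for SHMT1 and 160 TPM or more for GGH. DUT was likewise highest in the 6 DLD-1 conditions (156 TPM or more). UNG went the other way, with the DLD-1 conditions between 43.7 and 57.7 TPM and those of the other lines between 91.5 and 108 TPM, except sensitive HCT-116 cells under 5-FU (57.8) and 5-FU+IR (54). SMUG1 was highest in the 3 sensitive HT-29 conditions (41.8 to 51.2 TPM) and lowest in resistant HCT-116 and DLD-1 cells (24.9 to 27.6 TPM). FPGS led in sensitive HT-29 cells under uracil (83.4 ± 0.335 TPM), apart from every other condition, and TDG was lowest in sensitive HCT-116 cells under uracil (31.7 ± 0.783 TPM), also apart from the next.

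Across the 18 condition means of log2(TPM + 1), SHMT1 and GGH followed each other most closely of any pair of members (Pearson r = 0.96), then FPGS and UNG (0.9), SHMT1 and DUT (0.8), and GGH and DUT (0.75). These conditions share lines and controls, so they are not independent points. Among 21996 genes with at least 1 TPM in a condition, the profile most like that of TYMS was STIL (r = 0.983) and then SPC25 (0.977). SMC2 was among the closest for SHMT1 (0.981) and RNF40 for GGH (0.978). The closest pair for FPGS was CWC25 (0.968) and RCC1L (0.966), and for DUT it was SNRPB (0.988) and GSTCD (0.987). For UNG they were AP4M1 (0.982) and ECI1 (0.967), for SMUG1 AC119427.1 (0.954) and CSPG4P10 (0.949), and for TDG, whose best match was the weakest, TMEM126A (0.795) and NUDT19 (0.783).

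5-FU moved most of the 8 genes in sensitive cells, but not alike in the 3 lines. CPM values (estimated counts scaled to a common library size by TMM) were compared with uracil, and a gene was taken to rise or fall where its p in edgeR, adjusted by Benjamini-Hochberg over all genes of the fit, was 0.01 or less. In HCT-116 cells 6 members fell and 1 rose, where 24.4% of 22975 genes tested fell and 17.6% rose. In HT-29 cells 5 fell and 2 rose, against 24.9% lower and 22.1% higher of 23756 genes. DLD-1 cells had 4 lower and 0 higher, against 20.3% lower and 14.4% higher of 21814 genes. For that 0, no member had a positive difference at an unadjusted p under 0.05, and DESeq2 called the same number of members, 4. On the length-corrected scale fewer passed in DLD-1, 2 with transcript length as an offset (DUT and UNG) and 1 with limma on log2(TPM + 1), UNG. The median log2 difference of the members was -0.77 in HCT-116, -0.30 in HT-29 and -0.19 in DLD-1, beside 0.03, 0.03 and 0.01 for all genes tested. Scaling by library size alone moved the median of all genes to 0.11, 0.19 and 0.12, and the share of higher genes among those called from 42 to 53.5% in HCT-116, 47 to 62.1% in HT-29 and 41.5 to 60.8% in DLD-1.

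TYMS RNA, which encodes the target of 5-FU, fell in HCT-116 and rose in HT-29. In HCT-116 it was 285, 282 and 294 CPM under uracil and 113, 117 and 110 CPM under 5-FU, 2.53-fold lower (log2 difference -1.34, SE 0.04, adjusted p = 1.10e-16). In HT-29 it was 207, 211 and 190 CPM under uracil and 295, 289 and 281 CPM under 5-FU, 1.42-fold higher (0.51, SE 0.04, adjusted p = 1.05e-10). The groups did not overlap in either line. These are RNA values, and protein was not analysed here. For HCT-116 under 5-FU the paper lists TYMS among the proteins that increased. In DLD-1 the libraries read 269, 256 and 257 CPM under uracil and 240, 246 and 253 CPM under 5-FU, a log2 difference of -0.08 (95% interval -0.20 to 0.04, adjusted p = 0.266), with every 5-FU library below every uracil library in CPM and overlapping groups in TPM. Of its antisense neighbours, ENOSF1 fell in HT-29 (-0.51, SE 0.04) where TYMS rose, and its differences in DLD-1 (-0.07) and HCT-116 (0.16, adjusted p = 0.0105) did not pass. TYMSOS, at 1.25 to 5.95 CPM under uracil, fell in all 3 lines, with the largest log2 difference in DLD-1 (-1.01), then HCT-116 (-0.82), then HT-29 (-0.36).

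GGH, the folate polyglutamate hydrolase encoded on chromosome 8, took the same directions as TYMS. It was 59.5, 56.4 and 61 CPM under uracil in HCT-116 and 21.6, 23.1 and 22.3 CPM under 5-FU, 2.63-fold lower (log2 difference -1.40, SE 0.06, adjusted p = 3.98e-14). In HT-29 it was 45.7, 47.3 and 38.4 CPM under uracil and 75.8, 72.1 and 69 CPM under 5-FU, 1.65-fold higher (0.72, SE 0.06, adjusted p = 4.80e-11). No library of one group reached the other in either line. DLD-1 gave 105, 98 and 103 CPM against 103, 102 and 110 CPM, overlapping groups with a difference of 0.04 (SE 0.06, adjusted p = 0.574), although in TPM the 5-FU libraries were all higher (190, 186 and 196 against 177, 168 and 175). FPGS, which builds the polyglutamates that GGH removes, fell in all 3 lines: by 0.60 in DLD-1 (SE 0.04, adjusted p = 2.42e-10), 0.57 in HCT-116 (SE 0.05, 8.76e-09) and 0.82 in HT-29 (SE 0.04, 2.31e-15) on the log2 scale. Its largest difference was in HT-29, from 129, 133 and 118 CPM to 73, 72.1 and 71.4 CPM. In DLD-1 the FPGS fall was smaller on the length-corrected scale, where the mix of FPGS transcripts also differed (described with the transcripts): 44.8, 51.3 and 48.6 TPM under uracil and 46.5, 46.9 and 41 TPM under 5-FU, which overlap, and -0.22 (adjusted p = 0.0129) with transcript length as an offset.

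SHMT1, the cytosolic serine hydroxymethyltransferase, fell in every line. In HCT-116 it went from 67.9, 66.9 and 68 CPM to 39.4, 38.7 and 37.4 CPM, 1.76-fold lower (-0.81, SE 0.04, adjusted p = 1.23e-13). The falls in HT-29 (-0.33, SE 0.04, adjusted p = 2.44e-07) and DLD-1 (-0.22, SE 0.04, 9.81e-05) were smaller. In neither of these lines did the TPM groups separate, and the DLD-1 value was -0.12 (adjusted p = 0.0365) with the length offset.

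DUT, which breaks down dUTP, fell in all 3 lines in CPM. It went from 71.3, 74.5 and 77.3 CPM to 33.8, 36.2 and 35 CPM in HCT-116, 2.12-fold lower (-1.09, SE 0.05, adjusted p = 4.01e-14), from 87.3, 85.5 and 73.1 CPM to 57.7, 55.1 and 53.1 CPM in HT-29 (-0.57, SE 0.05, 2.90e-10) and from 104, 95.4 and 97.8 CPM to 77.9, 74.5 and 84.6 CPM in DLD-1 (-0.33, SE 0.05, 9.49e-06). The CPM groups did not overlap in any line. In TPM the DLD-1 groups touched, at 178, 174 and 167 against 159, 146 and 167, and the difference did not pass on that scale (-0.14 in log2(TPM + 1), limma adjusted p = 0.0469). TYMS, GGH and DUT in HCT-116 were the only member changes of 5-FU past 2-fold, a size reached downwards by 3.36% of genes there.

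Of the 3 glycosylases, UNG, the main remover of uracil at replication, fell in every line. In HCT-116 it was 142, 141 and 147 CPM under uracil and 87, 86.4 and 85.4 CPM under 5-FU (-0.73, SE 0.05, adjusted p = 4.40e-11). In DLD-1 it was 84.1, 81.3 and 81.8 CPM against 61.7, 63.1 and 62.6 CPM (-0.40, SE 0.06, 7.12e-06). In HT-29 the CPM values were 166, 172 and 144 against 132, 134 and 132 (-0.28, SE 0.05, 5.70e-05), but the TPM groups overlapped. TDG, which acts on mismatched thymine and uracil, took opposite directions: it rose in HCT-116, from 45.4, 46.1 and 45.7 CPM to 52.7, 56.3 and 54 CPM (0.25, SE 0.04, adjusted p = 5.40e-05), and fell in HT-29, from 87.5, 86.6 and 78.3 CPM to 57.9, 57.1 and 55.9 CPM (-0.56, SE 0.04, 2.18e-11). Its DLD-1 difference was -0.15 (SE 0.08, adjusted p = 0.107). SMUG1, the backup uracil glycosylase, passed the test in no line, with differences of 0.09 (95% interval -0.03 to 0.21) in HCT-116, -0.09 (-0.18 to 0.01) in HT-29 and 0.04 (-0.06 to 0.15) in DLD-1. In HT-29 its sign depended on the scale, and on TPM it was higher under 5-FU in all 3 libraries (47.3, 48.3 and 50.7 against 38.7, 41.9 and 44.9).

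**Figure D2:**
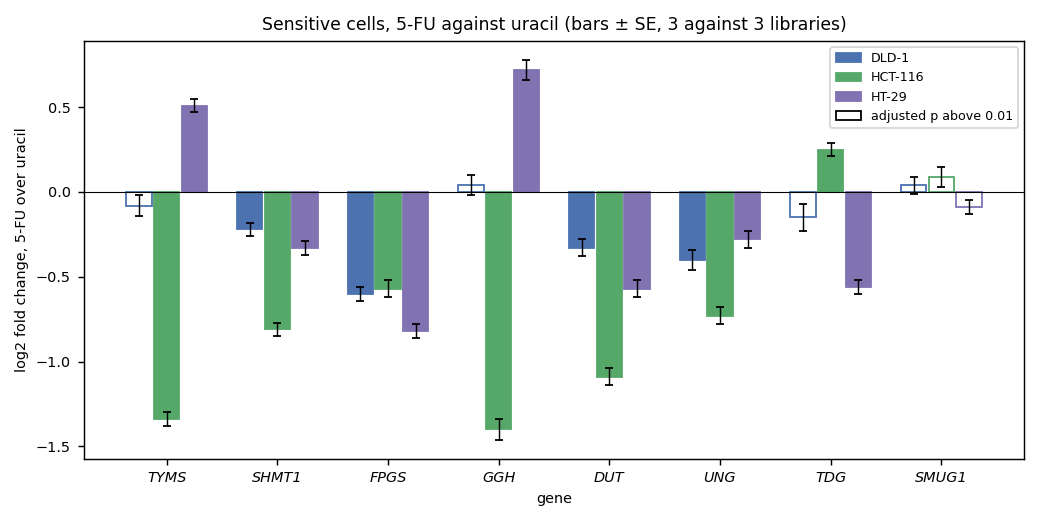
Log2 fold change of 5-FU over uracil (vertical axis) for the 8 genes in sensitive cells of each line, as coloured bars with error bars of 1 SE from the edgeR fit of 3 against 3 libraries, where open bars had an adjusted p above 0.01. TYMS and GGH lie at -1.34 and -1.40 in HCT-116 and at 0.51 and 0.72 in HT-29, and the 3 SMUG1 bars are open.

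The responses of the sensitive lines were compared directly in 1 fit over all 54 libraries, a contrast added after the data were seen. The response of HCT-116 was below that of DLD-1 for TYMS by 1.25 on the log2 scale (SE 0.07, adjusted p = 7.32e-20), and also for GGH, DUT, SHMT1 and UNG, and above it for TDG, so that 6 members differed where 25.3% of genes did. HT-29 and HCT-116 differed in 6 members against 34.9% of genes, led by GGH (2.18, SE 0.10, adjusted p = 1.01e-24) and TYMS (1.91, SE 0.07, 3.35e-27). HT-29 and DLD-1 differed in 3 members against 27.2% of genes: TYMS (0.65), GGH (0.74) and TDG (-0.34). FPGS and SMUG1 passed in none of these comparisons. For FPGS the differences between lines were 0.04, -0.19 and -0.15, each with an SE of 0.07. The 3 comparisons share samples.

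The wider pathway was described by lists of other genes. Their counts stand beside the shares of all genes given above, 20.3% lower and 14.4% higher for DLD-1, 24.4% and 17.6% for HCT-116, and 24.9% and 22.1% for HT-29, and the difference from these shares was not tested. Of 23 tested genes of folate and one-carbon metabolism, 10 fell and 1 rose in DLD-1, 7 fell and 2 rose in HCT-116, and 14 fell and 2 rose in HT-29 (medians -0.24, -0.08 and -0.53). The mitochondrial serine hydroxymethyltransferase SHMT2 fell in HCT-116 by 0.61 (SE 0.05) on the log2 scale. In DLD-1 the mitochondrial folate enzyme MTHFD2 fell by 1.06 (SE 0.04), and in HT-29 the folate receptor FOLR1 rose by 1.42 (SE 0.21) from 0.852 to 2.64 TPM.

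Of 10 genes that supply deoxynucleotides, 4 fell and 2 rose in DLD-1, 4 fell and 4 rose in HCT-116, and 5 fell and 5 rose in HT-29. Thymidine kinase TK1, which salvages thymidine, fell in HCT-116 by 1.87 (SE 0.05), and the ribonucleotide reductase subunit RRM1 by 1.61 (SE 0.04). In HT-29 the other subunit, RRM2, rose by 0.92 (SE 0.05), as did the dNTP hydrolase SAMHD1 by 1.22 (SE 0.05). In DLD-1 the mitochondrial thymidine kinase TK2 fell by 0.35 (SE 0.06), and DCTD, which makes dUMP from dCMP, rose by 0.29 (SE 0.04). Of 20 base excision repair genes, 10 fell and 3 rose in DLD-1, 11 fell and 2 rose in HCT-116, and 6 fell and 7 rose in HT-29. The glycosylase NEIL3 rose by 0.67 (SE 0.08) in DLD-1, where NEIL2 fell by 0.66 (SE 0.06). In HCT-116 NEIL3 fell by 1.85 (SE 0.06) and the flap endonuclease FEN1 by 1.39 (SE 0.06). In HT-29 the ligase LIG3 fell by 0.81 (SE 0.04) and the glycosylase OGG1 rose by 0.77 (SE 0.06).

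Of 12 genes of S phase, 11 fell in HCT-116, 9 of them past 2-fold, with a median of -1.21. In HT-29 7 rose and 3 fell, with a median of 0.33, while of the members there 2 rose (TYMS and GGH) and 5 fell, and in DLD-1 4 fell and 0 rose, with a median of -0.08. Among them the replication helicase subunits MCM7 and MCM5 fell by 1.69 (SE 0.04) and 1.66 (SE 0.05) in HCT-116, cyclin CCNE2 and the factor E2F1 rose by 1.50 (SE 0.06) and 0.84 (SE 0.04) in HT-29, and MCM6 and MCM5 fell by 0.56 (SE 0.04) and 0.47 (SE 0.07) in DLD-1. The part of a changed share of cells in S phase in the members' values was not tested.

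5-FU also changed which transcript was used. Usage of a transcript is its estimated counts relative to those of its gene, tested with edgeR over all transcripts. In HCT-116 cells 5 of 73 tested member transcripts changed, against 1.09% of all 86951 transcripts, in DLD-1 1 of 75 (0.592% of all) and in HT-29 3 of 78 (1.03%). UNG-202, whose mitochondrial start is printed above, made up 21.5, 19.2 and 21% of UNG TPM in sensitive HCT-116 cells under uracil and 45.6, 45.3 and 46.2% under 5-FU (log2 difference relative to the gene 0.79, adjusted p = 1.10e-05). Its level was 20.4, 18.4 and 20.7 TPM under uracil and 27.1, 25.9 and 26.1 TPM under 5-FU, while the nuclear UNG-201 went from 73.6, 75.4 and 75.3 TPM to 31.5, 30.1 and 29.2 TPM. The share of UNG-201 went from 77.5 ± 0.96% to 52.3 ± 0.75% (SD, n = 3; edgeR adjusted p = 0.0185), which did not pass. In the other lines the UNG-202 share was lower under 5-FU, 33.4 ± 1.1% against 23.4 ± 3.3% in DLD-1 and 23.5 ± 1.9% against 14.5 ± 0.87% in HT-29 (SD, n = 3), without passing the test (edgeR adjusted p = 0.872 and 0.0964). A test of the difference between lines in usage was not run.

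For DUT in HCT-116 the mitochondrial transcript also held a larger share under 5-FU. The mitochondrial DUT-201 was 3.19, 1.98 and 1.93% of DUT under uracil and 8.15, 9.29 and 8.81% under 5-FU (1.31, adjusted p = 8.60e-05), with 2.58 to 3.88 TPM under uracil and 4.97 to 5.63 TPM under 5-FU, whereas the nuclear DUT-202 went from 25.6 ± 0.78% to 18.1 ± 1.8% of DUT (SD, n = 3; edgeR adjusted p = 0.174). Neither was the main DUT transcript in sensitive HCT-116 cells. That was DUT-205, with 56.1, 53.3 and 61.6% of DUT in the uracil libraries. In the 5-FU libraries it held 50.6, 48 and 49%. The mean level of DUT-205 dropped from 74.5 to 30 TPM, and its coding start is not among those printed above. Without replicate 2 the calls of UNG-202 and DUT-201 were lost (adjusted p = 0.0217 and 0.0176), and that of DUT-201 also without replicate 3 (0.0162). FPGS-203, the 587-residue form, was 39, 31.4 and 35.7% of FPGS in sensitive DLD-1 cells under uracil and 8.83, 6.65 and 12.1% under 5-FU (-1.09, adjusted p = 1.79e-08), a change kept without any 1 replicate number. Its level went from 17.5, 16.1 and 17.3 TPM to 4.11, 3.12 and 4.98 TPM. In HCT-116 its share was 44.4, 36.7 and 43.4% against 22.6, 19.6 and 22.7% (-0.49, adjusted p = 0.00943), a call lost without any 1 replicate number (0.0861 to 0.161). In HT-29 it was 47.2 ± 2.1% against 24.5 ± 1.8% (SD, n = 3; edgeR adjusted p = 0.183).

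The other changed transcripts were minor or had no annotated protein. In HCT-116 TYMS-205 went from 8.09 to 18.5% of TYMS and FPGS-221 from 0.37 to 3.45% of FPGS. In HT-29 DUT-207 went from 0.0597 to 4.5% of DUT (4.02, adjusted p = 3.03e-06), kept without any 1 replicate number, and TDG-201 and TDG-210 stayed under 1% of TDG.

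**Figure D3:**
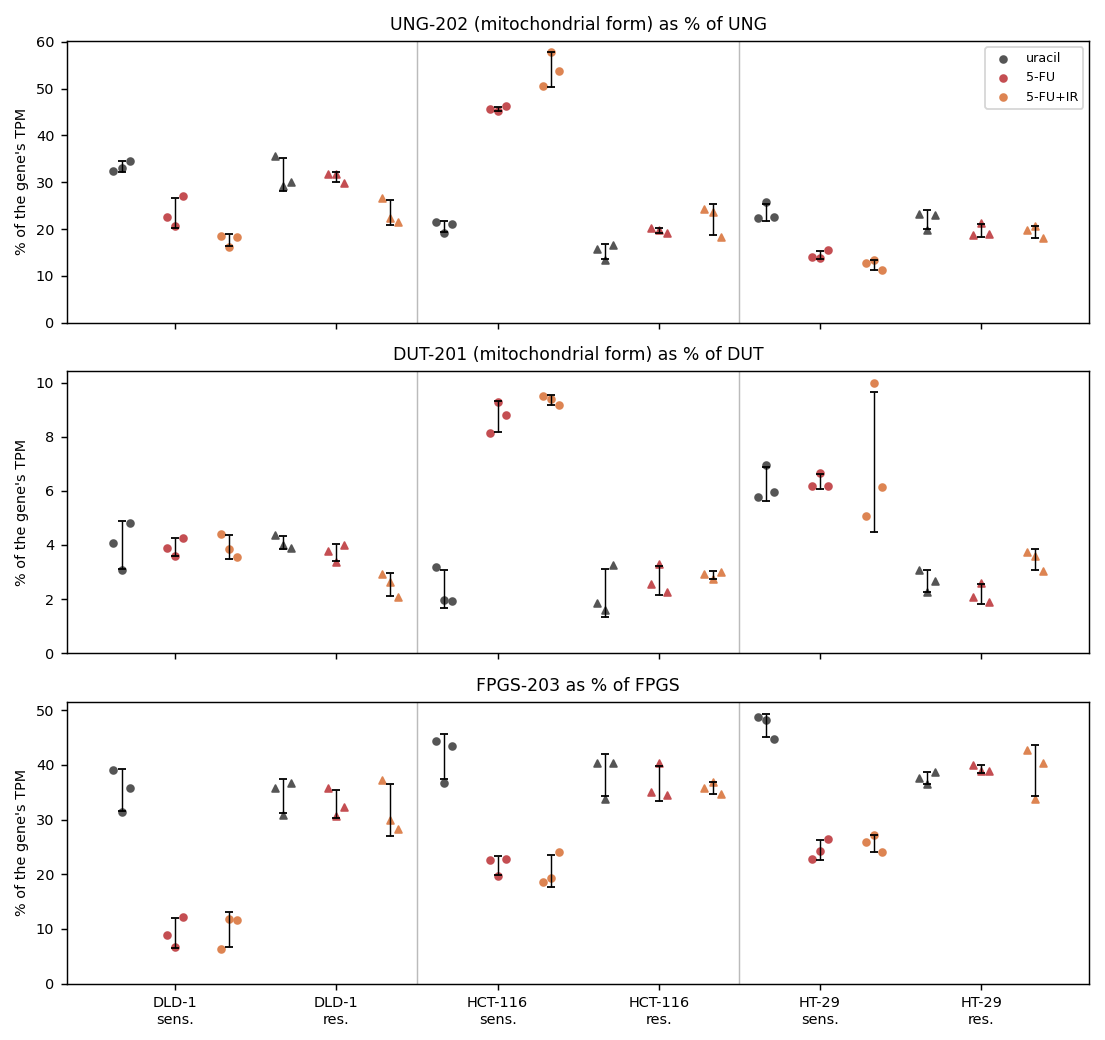
Share of the gene's TPM, in percent (vertical axis), held by UNG-202, DUT-201 and FPGS-203 in sensitive (circles) and resistant (triangles) cells of each line, with 1 point per library, coloured by treatment, and a vertical line for the mean ± SD of 3 libraries. In sensitive cells UNG-202 goes from 20.6 to 45.7% of UNG under 5-FU in HCT-116, and FPGS-203 from 35.3 to 9.21% of FPGS in DLD-1.

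Irradiation after 5-FU, as given here with a medium change, added little in sensitive cells. TYMS in HCT-116 was the 1 member that changed, falling from 126, 127 and 123 TPM under 5-FU to 107, 105 and 98.3 TPM (log2 difference of CPM -0.28, SE 0.04, adjusted p = 4.18e-04), where 0.918% of genes fell. The call was lost without any 1 replicate number, with values of -0.32, -0.26 and -0.26. Its neighbours ENOSF1 (-0.09, adjusted p = 0.695) and TYMSOS (0.09, 0.934) did not pass. Of the 12 S-phase genes 9 fell in the same comparison (median -0.34). In DLD-1 0 members passed (edgeR; 2 at an unadjusted p under 0.05, 0 by DESeq2), where 0.0642% of genes did, and in HT-29 0 passed (0 and 0), where 0.00842% did. Differences there ran from -0.15 (UNG) to 0.06 (TDG) in DLD-1 and from -0.06 (DUT) to 0.01 (SHMT1) in HT-29.

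In resistant cells, which had been kept in 5-FU beforehand, no difference between 5-FU and uracil was detectable for the 8 genes. 0 members passed in any line by edgeR, while at an unadjusted p under 0.05 there was 1 member for DLD-1, 1 for HCT-116 and 0 for the libraries labelled resistant HT-29. DESeq2 called 0 in each, where 0.385%, 0% and 0.0421% of all genes passed. TYMS was 369, 360 and 361 TPM under uracil and 362, 349 and 348 TPM under 5-FU in resistant HCT-116 cells (CPM log2 difference -0.07, SE 0.04). In DLD-1 it was 224, 263 and 259 TPM against 256, 270 and 256 TPM (0.10, SE 0.06). In the libraries labelled resistant HT-29 it was 340, 343 and 324 TPM against 335, 336 and 335 TPM (-0.02, SE 0.04). The groups overlapped in all 3 forms. Without the first resistant DLD-1 library under uracil, which stood apart, TYMS read 0.00 in DLD-1 (SE 0.04) and FPGS -0.17 (adjusted p = 0.0217), and 0 members passed. The differences of the 8 genes ran from -0.15 (FPGS, SE 0.04, adjusted p = 0.0555) to 0.10 (TYMS) in DLD-1, from -0.13 (FPGS) to 0.04 (SMUG1) in HCT-116 and from -0.06 (SMUG1) to 0.09 (TDG) in the libraries labelled resistant HT-29.

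The 5-FU response of resistant cells was compared with that of sensitive cells by the interaction term. In HCT-116 it differed for 7 members, where 29.7% of genes differed: the resistant response lay above the sensitive one for GGH (1.40, SE 0.09), TYMS (1.27, SE 0.06), DUT (1.02, SE 0.07), SHMT1 (0.78, SE 0.06), UNG (0.63, SE 0.07) and FPGS (0.44, SE 0.08), and below it for TDG (-0.34, SE 0.06). In DLD-1 it differed for 3, where 22.8% of genes did, namely FPGS (0.45, SE 0.06, adjusted p = 4.25e-06), UNG (0.40, SE 0.08, 5.91e-04) and DUT (0.32, SE 0.07, 8.78e-04). Without the first resistant library under uracil these terms read 0.43, 0.31 and 0.31, and all 3 passed. With transcript length as an offset 1 member passed and with limma on log2(TPM + 1) 0, where the FPGS term was -0.07. For HT-29 against the libraries labelled resistant it differed for 7 where 35.4% of genes did, with TYMS (-0.52, SE 0.06) and GGH (-0.75, SE 0.08) below the sensitive response and FPGS (0.78), TDG (0.65), DUT (0.61), SHMT1 (0.32) and UNG (0.30) above it. Since the resistant responses were near 0, these terms are close to the sensitive responses with the sign turned.

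With irradiation after 5-FU in resistant cells, members passed the test in the libraries labelled resistant HT-29, where TYMS, SHMT1, GGH and UNG fell and 0 rose, against 6.94% of genes lower and 7.48% higher. TYMS was 335, 336 and 335 TPM under 5-FU and 281, 282 and 271 TPM after irradiation (log2 difference of CPM -0.31, SE 0.04, adjusted p = 6.41e-06), with no overlap. The others were smaller: GGH -0.28 (SE 0.06), SHMT1 -0.21 (SE 0.04) and UNG -0.21 (SE 0.05). Without replicate 2 TYMS alone passed, with GGH at -0.24 (edgeR adjusted p = 0.0355), SHMT1 at -0.17 (0.0801) and UNG at -0.16 (0.127), and with transcript length as an offset TYMS and GGH did. ENOSF1 (-0.01, adjusted p = 0.88) and TYMSOS (0.27, 0.138) did not pass. In the same libraries 8 of 12 S-phase genes fell, and 0 rose. In DLD-1 0 passed by edgeR, 1 had an unadjusted p under 0.05, and DESeq2 called 1: DUT, at 155, 155 and 161 TPM under 5-FU and 181, 187 and 182 TPM after irradiation (0.20, SE 0.05, edgeR adjusted p = 0.0145), where 3.85% of genes passed. In HCT-116 0 passed (3 at an unadjusted p under 0.05, 0 by DESeq2), where 2.58% of genes did, and TYMS read 362, 349 and 348 TPM against 319, 314 and 330 TPM (-0.13, SE 0.04, adjusted p = 0.069). The dose was set by line label, so it differed between these comparisons. Whether the lines differed in this was not tested.

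**Figure D4:**
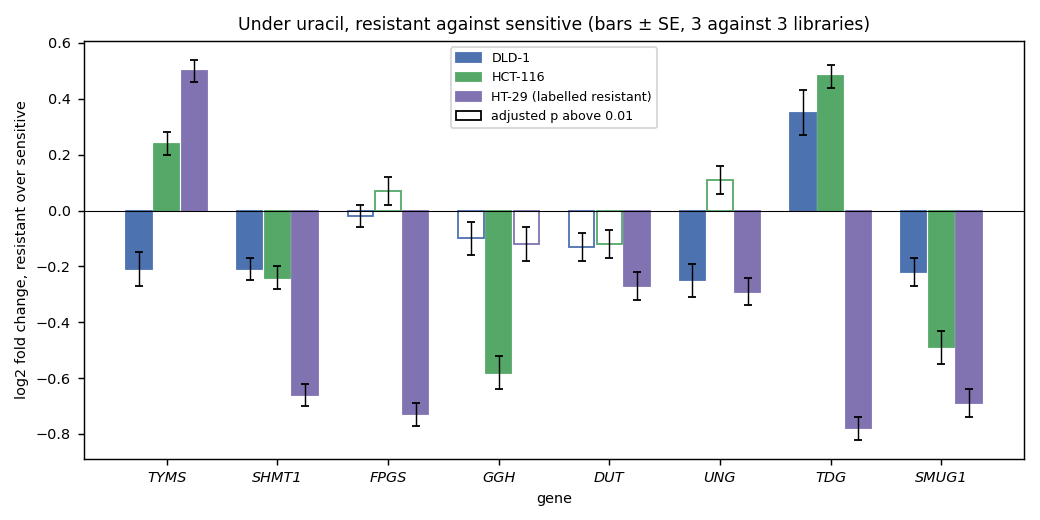
Log2 fold change of resistant over sensitive cells under uracil (vertical axis) for the 8 genes in each line, as coloured bars with error bars of 1 SE from the edgeR fit of 3 against 3 libraries, where open bars had an adjusted p above 0.01. TYMS lies at 0.24 in HCT-116, at 0.50 for the libraries labelled resistant HT-29 and at -0.21 in DLD-1, and SMUG1 lies below 0 in all 3. Bars for the libraries labelled resistant HT-29 are against sensitive HT-29 cells, whose markers they lack. Against sensitive HCT-116 cells SMUG1 did not pass in them.

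Resistant and sensitive cells were compared under uracil. In HCT-116, TYMS and TDG were higher in resistant cells and SHMT1, GGH and SMUG1 lower, where 16.4% of genes were higher and 24.7% lower. TYMS was 345, 333 and 339 CPM in resistant and 285, 282 and 294 CPM in sensitive cells (log2 difference 0.24, SE 0.04, adjusted p = 5.97e-05), without overlap. TDG was 65, 62.7 and 64.1 CPM against 45.4, 46.1 and 45.7 CPM (0.48, SE 0.04, adjusted p = 5.27e-09), and GGH was 36.4, 37.9 and 44.3 CPM against 59.5, 56.4 and 61 CPM (-0.58, SE 0.06, 6.57e-08). Both pairs of groups were separate on either scale. SMUG1 was 17.9, 17.6 and 18.6 CPM against 26.6, 22.9 and 26.2 CPM (-0.49, SE 0.06, 4.46e-07), and SHMT1 differed by -0.24 (SE 0.04, 2.07e-05). FPGS (0.07), DUT (-0.12) and UNG (0.11, adjusted p = 0.064) did not pass. DUT is among the proteins that the paper lists as increased in every resistant line, and protein was not analysed here.

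In DLD-1 the differences were small. TYMS, SHMT1, UNG and SMUG1 were lower and TDG higher in resistant cells, where 11.5% of genes were lower and 13.1% higher. TYMS was 195, 243 and 238 CPM in resistant and 269, 256 and 257 CPM in sensitive cells (-0.21, SE 0.06, adjusted p = 0.00752), and the low first library stood apart. UNG was 59.1, 75.2 and 73.1 CPM against 84.1, 81.3 and 81.8 CPM (-0.25, SE 0.06, 0.00166). TDG was 58.7, 81.3 and 77.6 CPM against 60.1, 55 and 56.3 CPM (0.35, SE 0.08, 0.00106), where the first resistant library lay among the sensitive ones. Without that library, TYMS read -0.12 (adjusted p = 0.0206) and did not pass, TDG read 0.48 (5.76e-09), UNG -0.15 (0.00122), SHMT1 -0.19 and SMUG1 -0.26, and 4 members remained called. With replicate number 1, 2 or 3 left out of every group, 3, 2 and 0 of the 8 passed, and 1 passed when only the compared groups were fitted. SHMT1 (-0.21, SE 0.04) and SMUG1 (-0.22, SE 0.05) had no overlap between groups on either scale.

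For HT-29 the labels pair sensitive cells with libraries that lack the HT-29 markers, as given above. TYMS was higher in the libraries labelled resistant and 6 members were lower, where 34.1% of genes were higher and 34.3% lower. TYMS was 294, 294 and 273 CPM in them and 207, 211 and 190 CPM in sensitive HT-29 cells (0.50, SE 0.04, adjusted p = 5.37e-11). TDG was 50.5, 49.1 and 48.1 CPM against 87.5, 86.6 and 78.3 CPM (-0.78, SE 0.04, 1.69e-14), and FPGS (-0.73), SMUG1 (-0.69) and SHMT1 (-0.66), each with an SE of 0.04 or 0.05, were lower as well. These 5 genes did not overlap between groups on either scale. DUT (-0.27, SE 0.05) and UNG (-0.29, SE 0.05) were lower in CPM only: on TPM they were 137, 135 and 137 against 133, 128 and 123, and 105, 102 and 92.7 against 101, 104 and 91.6. With scaling by library size alone, which moved the median of all genes to 0.26, they read -0.01 and -0.03. GGH read -0.12 (adjusted p = 0.0749), and its sign turned on TPM.

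Set against sensitive HCT-116 cells in the fit over all libraries, the libraries labelled resistant HT-29 differed in 2 members where 30.2% of genes differed: GGH (-0.50, SE 0.07, adjusted p = 3.09e-08) and SHMT1 (-0.20, SE 0.04, 1.08e-04). TYMS differed by 0.04 (SE 0.05, adjusted p = 0.536) and TDG by 0.15 (SE 0.06, 0.0466). SMUG1 did not pass either, at 35.47 TPM in these libraries and 35.99 TPM in sensitive HCT-116 cells. Set against resistant HCT-116 cells, 4 members differed where 20.2% of genes did, with TYMS (-0.21), UNG (-0.20) and TDG (-0.34) lower and SMUG1 higher (0.42, SE 0.05, 5.81e-09). With any 1 replicate number left out, 2 members passed. By contrast the sensitive HT-29 cells differed from sensitive HCT-116 cells in all 8 members, where 63.7% of genes differed, among them TDG (0.92), FPGS (0.72), SMUG1 (0.63) and TYMS (-0.47). DUT and UNG lost that call, leaving 6, with library size alone, the length offset, limma on TPM, no filter or only the compared groups, and without replicate 1 or 2. All 8 also differed between sensitive HT-29 and DLD-1 cells (58.8% of genes), where FPGS (1.05) and GGH (-1.28) passed 2-fold, as did 30.9% of genes, and 6 between sensitive DLD-1 and HCT-116 cells (59.8%), led by GGH (0.89), SHMT1 (0.87) and UNG (-0.70). These comparisons share their control samples.

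Transcript usage was compared in the same way. Against sensitive HT-29 cells, 11 of 78 member transcripts changed in the libraries labelled resistant, where 4.22% of transcripts did, and 5 to 6 changed when 1 replicate number was left out. TYMS-201, a 279-residue form, was 0.463 ± 0.25% of TYMS there and 5.26 ± 0.43% in sensitive HT-29 cells (SD, n = 3; -2.53, edgeR adjusted p = 2.92e-18), beside 0.908 ± 0.19% in sensitive HCT-116 cells. FPGS-202, a 375-residue form, was 11.3 ± 1.1% of FPGS there and 0.175 ± 0.15% in sensitive HT-29 cells (4.10, adjusted p = 3.03e-10), beside 9.76 ± 0.79% in sensitive HCT-116 cells. In HCT-116 1 of 73 changed with resistance (0.641% of all), the minor SMUG1-215 (2.71 to 0.163% of SMUG1). In DLD-1 0 of 75 did by edgeR (3 at an unadjusted p under 0.05), where 0.417% of transcripts did, and no other tool was run on transcripts.

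The lists beside the members were also counted for resistance, next to 13.1% of all genes higher and 11.5% lower for DLD-1, 16.4% and 24.7% for HCT-116, and 34.1% and 34.3% for the libraries labelled resistant HT-29, with no test of the difference from these shares or between lines. Of 23 folate genes 2 were higher and 5 lower in resistant DLD-1, 7 were higher and 6 lower in resistant HCT-116, and the libraries labelled resistant HT-29 had 10 higher and 7 lower. The formyl-folate dehydrogenase ALDH1L1 was higher in resistant HCT-116 cells by 4.35 (SE 0.12; 9.82 against 0.472 TPM) and lower in resistant DLD-1 cells by 1.24 (SE 0.11), and the glycine cleavage enzyme GLDC was lower in resistant HCT-116 by 1.14 (SE 0.10). Of the 10 deoxynucleotide genes, 0 were higher and 2 lower in DLD-1 (DTYMK and DCTD, by 0.21 and 0.17), and 2 were higher and 4 lower in HCT-116, with RRM2 higher by 0.42 (SE 0.06). The libraries labelled resistant HT-29 had 5 higher and 2 lower, with RRM2B higher by 1.32 (SE 0.06). Of the 20 base excision repair genes, 3 were higher and 5 lower in DLD-1, and 8 higher and 4 lower in HCT-116. The libraries labelled resistant HT-29 had 8 higher and 8 lower, with MBD4, another glycosylase for mismatched thymine and uracil, lower by 2.32 (SE 0.05) and NEIL2 higher by 2.27 (SE 0.06). The S-phase genes were 2 higher and 6 lower in DLD-1, where MCM4 was lower by 1.03 (SE 0.05), and 5 higher and 1 lower in HCT-116, while the libraries labelled resistant HT-29 had 4 higher and 4 lower. Other genes that the naming rule gave were NEIL1 (0.57) and NEIL2 (0.33), higher, and MKI67 (-0.60), lower, in resistant DLD-1 cells, then CCNE2 (0.71) and CCNE1 (0.51), higher, and RRM2B (-0.36) and MPG (-0.43), lower, in resistant HCT-116 cells. In the libraries labelled resistant HT-29 they were GLDC (4.23), NME1 (0.94) and CCNE2 (0.97), higher, and E2F1 (-0.82), lower. All these differences are from sensitive HT-29 cells, whose markers those libraries lack. Set against sensitive HCT-116 cells, they had 7 folate genes higher and 6 lower, and 1 and 2 of the deoxynucleotide genes. Base excision repair genes were 2 higher and 3 lower there, and S-phase genes 1 higher and 3 lower. Of all genes 12.4% were higher and 17.8% lower in that comparison. Of the antisense neighbours of TYMS, ENOSF1 was lower in resistant DLD-1 cells by 0.20 and higher in resistant HCT-116 cells by 0.23, whereas the libraries labelled resistant HT-29 had it lower by 0.84, the direction of TYMS in the first 2 and the opposite in the last. Under uracil ENOSF1 was 61.95 TPM in the libraries labelled resistant HT-29 and 60.99 TPM in sensitive HCT-116 cells, and TYMSOS 2.519 and 4.097 TPM. TYMSOS read -0.30 in DLD-1 (adjusted p = 0.215), was lower in resistant HCT-116 cells by 0.50 (SE 0.15, adjusted p = 0.00596), where TYMS was higher, and was 1.39, 1.04 and 1.45 CPM among the libraries labelled resistant HT-29 against 5.76, 5.64 and 5.95 CPM in sensitive HT-29 cells (-2.15, SE 0.12, adjusted p = 8.18e-15), also where TYMS was higher.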

How the data were processed

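Poly(A) RNA of 54 libraries was sequenced as directional paired reads. The authors trimmed the reads with Trimmomatic 0.36, checked them with FastQC 0.11.8, and quantified transcripts of Ensembl 98 (GRCh38.p13) with kallisto 0.44.0. They deposited estimated counts and TPM per transcript and per gene, the gene values being sums over transcripts. Whether kallisto was told the strand is not given in the sources used here.

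Samples were grouped by their labelled line, sensitivity and treatment. The deposited estimated counts were rounded to whole numbers and fitted with edgeR 4.0.16 in R 4.3.3 (TMM scaling, filterByExpr, quasi-likelihood test), 1 fit per line over 18 libraries and 6 groups, and 1 fit over all 54 libraries for comparisons between lines. P-values were adjusted by the Benjamini-Hochberg method over all genes of a fit and called at 0.01 or less, with a 2-fold limit where stated. Transcript usage was tested with diffSpliceDGE of edgeR. The deposited TPM values were used for levels, shares of a gene and profile correlations, on log2(TPM + 1). Coordinates and proteins came from GENCODE 44, to which 98.35% of deposited transcripts matched, and promoter windows from RefSeq. Tables and plots were made with Python 3.11.15, numpy 2.4.6, pandas 2.3.3 and matplotlib 3.10.9.

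The members and lists were chosen with earlier results of these data known. In each list, the 2 genes with the largest difference among those called at a mean of 1 TPM or more in either group were named for 5-FU in sensitive cells and for resistance, and for each member the 2 genes of most similar profile. Some genes that these rules gave are not reported here. Gene tests were checked on simulated data: for 5-FU in sensitive HCT-116 cells, with 22811 genes, 50 of 50 genes changed 2-fold, 48 of 50 changed 1.5-fold and 17 of 50 changed 1.25-fold were called. The simulated counts had the same fixed spread for every gene, not the spread of each gene in these data. Depth ranged from 38957142 to 218518344 estimated counts, and no replicate pair agreed within counting noise. Alternatives were DESeq2 1.42.0, scaling by library size, no filter, only the compared groups, a replicate block, each replicate number left out, the deepest library thinned to 23% and another pseudocount. Average transcript length as an offset, limma 3.58.1 on log2(TPM + 1), the comparison of responses between lines and the fit without 1 resistant DLD-1 library were added after the data were seen.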

Additional observations from a re-analysis of the deposited data

Results flagged for a closer look

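These results are listed because the effect of 5-FU differed between forms or lines by a direct test (edgeR, adjusted p of 0.01 or less). Each value is a difference of log2 responses to 5-FU.

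The response of resistant HCT-116 cells minus that of sensitive ones was 1.27 for TYMS, 0.78 for SHMT1, 0.44 for FPGS, 1.40 for GGH, 1.02 for DUT, 0.63 for UNG and -0.34 for TDG. In DLD-1 it was 0.45 for FPGS, 0.32 for DUT and 0.40 for UNG. For the libraries labelled resistant HT-29 it was -0.52 for TYMS, 0.32 for SHMT1, 0.78 for FPGS, -0.75 for GGH, 0.61 for DUT, 0.30 for UNG and 0.65 for TDG, and these libraries carried HCT-116 markers and no HT-29 marker.

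Between sensitive lines, the response of HCT-116 minus that of DLD-1 was -1.25 for TYMS, -0.59 for SHMT1, -1.43 for GGH, -0.75 for DUT, -0.32 for UNG and 0.41 for TDG. The response of HT-29 minus that of HCT-116 was 1.91 for TYMS, 0.54 for SHMT1, 2.18 for GGH, 0.57 for DUT, 0.51 for UNG and -0.76 for TDG. The response of HT-29 minus that of DLD-1 was 0.65 for TYMS, 0.74 for GGH and -0.34 for TDG.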

How the results depend on the processing

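With 3 libraries of 1 population per condition, small differences are the least secure, and in simulated data 15 to 24 of 50 genes changed 1.25-fold were called. The simulation used the same fixed spread for every gene, so these counts do not give the share of such member changes that would be called. Over the alternatives, 1793 values of single genes kept their call or lack of one, 78 lost a call and 18 gained one. Another 7 changed sign with a call in either fit. A change of sign in a gene called in neither fit is counted among the 1793. For transcripts called in the main fit, 48 values kept direction and call, 33 lost the call and 1 changed sign. The cause of a change was not tested. With transcript length as an offset, the members called fell to 2 for 5-FU in sensitive DLD-1 cells, 3 for resistant against sensitive DLD-1, 1 for the DLD-1 interaction and 2 for irradiation in the libraries labelled resistant HT-29. With limma on TPM they fell to 1, 3 and 0 in those DLD-1 comparisons and to 2 for the libraries labelled resistant HT-29 against resistant HCT-116. On that scale signs changed for FPGS in the DLD-1 interaction (-0.07), SMUG1 under 5-FU in HT-29 (0.22), GGH, DUT and UNG in the libraries labelled resistant HT-29 against sensitive HT-29 (0.20, 0.09 and 0.01) and DUT in sensitive HT-29 against sensitive HCT-116 (-0.03). Library size alone turned that GGH difference to 0.14 and gave 4 members in the libraries labelled resistant HT-29 against sensitive HCT-116. Irradiation in resistant DLD-1 cells had 1 member by DESeq2, without the filter and with only the compared groups, and resistant against sensitive DLD-1 had 1 with only the compared groups. A minimum mean of 10 counts gave 2 member transcripts for 5-FU in DLD-1. Leaving out 1 replicate number gave 0 to 3 members for resistant against sensitive DLD-1, 2 to 3 for the DLD-1 interaction, 0 to 0 for irradiation in sensitive HCT-116, 1 to 4 for irradiation in the libraries labelled resistant HT-29 (1 without replicate 2) and 2 to 2 for these against resistant HCT-116. For transcripts it gave 0 to 1 for resistance in DLD-1, 1 to 4 for 5-FU and 0 to 1 for resistance in HCT-116, and 1 to 3 for 5-FU and 5 to 6 for the labelled resistance in HT-29, where FPGS-221 ranged from -6.13 to 0.47. The main fits did not pair libraries by replicate number. Same-numbered libraries had mean correlations of deviations of -0.006 for DLD-1 (2 of 18 libraries lay closest to their own number), 0.012 for HCT-116 (9 of 18) and 0.007 for HT-29 (11 of 18). Whether these counts exceed those without pairing was not tested. The replicate block changed no member's call, with SHMT1 under 5-FU in DLD-1 at -0.22 (edgeR adjusted p = 2.49e-04), and moved all genes called there from 7575 to 7338.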
